A study of Homo sapiens with 8 samples.

Results

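The regions examined here are 5 stretches of the genome called for the histone mark H3K4me3 in MM1S, an established cell line from human multiple myeloma. Each is named for a gene: MEF2C, ARID5B, CELF2, SRGN and EVI2A. They make up 5 of the 50523 regions formed by merging the lists of all libraries. They were chosen from the widths themselves, because each was called narrower in KDM5-C70 libraries 2 and 3 than in DMSO libraries 3, 4 and 5. Those 5 libraries are called the choosing libraries below, and their widths are given as a description with no test. DMSO 1, DMSO 2 and KDM5-C70 1 took no part in the choice and are called the check libraries.

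The study mapped H3K4me3 by chromatin immunoprecipitation and sequencing in MM1S cells given KDM5-C70 at 50 uM for 7 days (3 libraries) or the vehicle DMSO (5 libraries, with no time of their own in the labels). All 8 libraries come from this 1 cell line, and nothing in the labels says whether the replicates were separate cultures, so any p-value measures only the spread between these libraries, which may be technical. The data are 8 lists of called regions, 1 per library. Depth is unknown, since no read counts were used, and an uncalled region is not one shown to lack the mark.

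H3K4me3 is a methyl mark placed on histone H3 around the start sites of active genes, and it spreads over a broader stretch at many genes that define a cell's identity. Enzymes of the KMT2 and SETD1 families write it, and the KDM5 family of demethylases removes it. KDM5-C70 is a cell-permeable inhibitor of the KDM5 enzymes. MEF2C is a MADS-box transcription factor with roles in B cell development and proliferation. ARID5B is a DNA-binding protein with an AT-rich interaction domain, and its locus carries inherited risk for childhood acute lymphoblastic leukaemia. CELF2 is an RNA-binding protein that acts in alternative splicing, in lymphocytes among other cells. SRGN encodes serglycin, the proteoglycan core protein of secretory granules in blood cells. EVI2A encodes a small membrane protein and lies inside an intron of NF1. As a group they are therefore 2 DNA-binding regulators, 1 RNA-binding regulator and 2 genes whose products are not known as regulators of transcription. The link of each region to its gene came with the choice of the regions. It was not checked here against an annotation of GRCh37, the build of the lists, so neither the word promoter nor the plasma cell identity of the cells was tested.

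RefSeq's table of promoters, on the build GRCh38.p14, held 7 starts for MEF2C, 2 for ARID5B and 10 for CELF2. These windows were not placed inside the GRCh37 regions, because coordinates were not converted between builds. The 250 bases before both ARID5B starts and before the first MEF2C start in the table are shown because they differ in CpG content, the sequence feature most tied to H3K4me3 at start sites. Capitals mark each CpG.
ARID5B, first start, chr10:61901449-61901698, plus strand: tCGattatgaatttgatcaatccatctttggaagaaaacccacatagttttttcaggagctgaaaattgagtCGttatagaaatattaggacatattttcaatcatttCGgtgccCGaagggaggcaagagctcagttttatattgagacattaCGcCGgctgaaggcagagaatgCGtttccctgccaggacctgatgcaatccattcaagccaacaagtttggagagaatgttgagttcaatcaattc
ARID5B, second start, chr10:62049107-62049356, plus strand: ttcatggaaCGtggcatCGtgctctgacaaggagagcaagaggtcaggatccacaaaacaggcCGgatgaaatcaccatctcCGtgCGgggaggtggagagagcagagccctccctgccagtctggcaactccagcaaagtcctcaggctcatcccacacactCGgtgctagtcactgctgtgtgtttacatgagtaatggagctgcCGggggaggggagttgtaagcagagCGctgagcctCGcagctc
MEF2C, first start, chr5:88883185-88883434, minus strand: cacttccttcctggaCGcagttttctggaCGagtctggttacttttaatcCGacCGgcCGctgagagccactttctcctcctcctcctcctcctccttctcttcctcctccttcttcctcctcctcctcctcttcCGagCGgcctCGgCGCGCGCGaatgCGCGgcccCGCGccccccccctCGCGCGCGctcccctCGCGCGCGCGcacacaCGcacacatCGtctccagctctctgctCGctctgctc
CpG (the letters CG, read alike on both strands) occurs 7 times in the first ARID5B window and 9 times in the second. The MEF2C window holds 28. Over the 35116 windows of this length in the table the median is 11. At least 28 were found in 15.9% of windows and at least 7 in 58.9%, so the MEF2C window is rich in CpG and both ARID5B windows lie below the median. Over all listed starts the count ran from 0 to 28 for MEF2C and from 4 to 44 for CELF2.

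Facts of the lists that bear on the members are few. The lists held 15323 to 32376 regions with DMSO and 17977 to 37948 with KDM5-C70. The check libraries had the 3 shortest lists (15323 to 20998 regions). Within a called region the files mark inner blocks, and blocks longer than 1 bp are called inner segments here. Inner segments took 68.2 to 76.3% of called bases in DMSO libraries and 56.5 to 58.4% in KDM5-C70 libraries, so a low inner width in KDM5-C70 is a feature of whole lists and not of these regions alone. In the choosing libraries, regions were more often called wider than narrower with KDM5-C70. A call in each of the 5 was found for 22537 regions. The pair of KDM5-C70 widths lay above the 3 DMSO widths in 35% of them and below in 7.61%. All 5 members belong to the latter kind by choice. The median log2 difference of called width over the 22537 was 0.16.

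**Figure D1:**
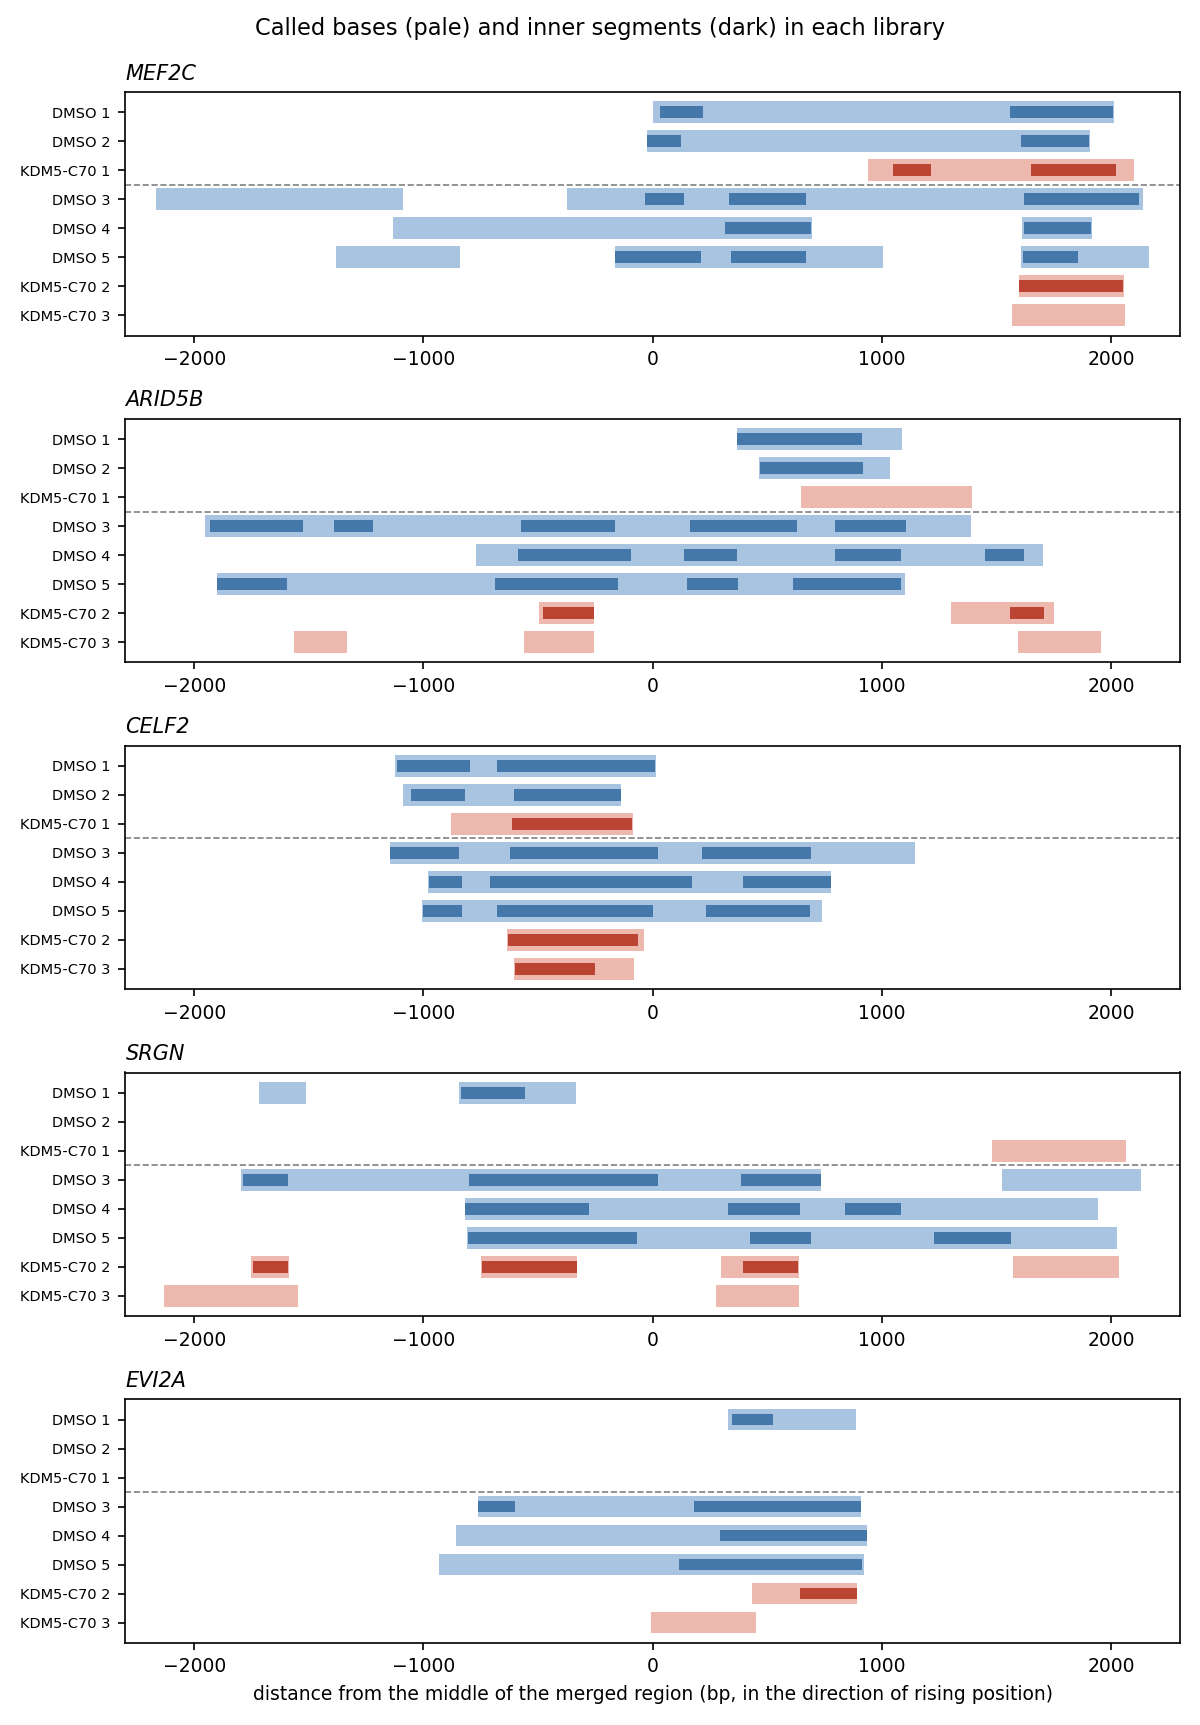
Called bases (pale bars) and inner segments (dark bars) in each library, by distance in bp from the middle of each merged region. The rows above the dashed line are the check libraries, and blue is DMSO and red KDM5-C70. In MEF2C all 8 libraries have called bases near the right end, while only DMSO libraries reach left of the middle.

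MEF2C had the lowest log2 difference of called width of all 22537 regions in the choosing libraries, and it was also narrower in the check libraries. The region lies on GRCh37 chr5:88176066-88180395. Its called width was 2009, 1929, 3590, 2132 and 2271 bp in DMSO 1 to 5. It was 1160, 458 and 490 bp in KDM5-C70 1 to 3. All 3 KDM5-C70 values lie below all 5 DMSO values. These widths add up separate pieces: DMSO 3 and DMSO 4 had 2 each, DMSO 5 had 3 and every other library 1. By widest single piece the groups nearly met, with 1170 bp in DMSO 5 and 1160 bp in KDM5-C70 1. The KDM5-C70 mean was 703 ± 396 bp (SD, n = 3), and the mean of DMSO was 2386 ± 685 bp (SD, n = 5). Each SD over all libraries includes any difference between check and choosing libraries. In the choosing libraries alone this is a log2 difference of -2.45, a ratio of 5.47 between DMSO and KDM5-C70. Ranked within each library's own regions, MEF2C was wider than 94.95 to 99.8% of them in the DMSO libraries. In KDM5-C70 1, 2 and 3 it was wider than 72.3, 24.7 and 28.7%.

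The MEF2C bases that separated the libraries lay on 1 side. A stretch of 296 bp (chr5:88179841-88180136) was called in all 8 libraries. A stretch of 693 bp to its left (chr5:88178233-88178925) was called in all 5 DMSO libraries and in no KDM5-C70 library. MEF2C is read from the minus strand, so this stretch lies on the side towards which the gene is transcribed. DMSO 3 reached furthest left, to 88176066, and KDM5-C70 1 began at 88179169. The inner width did not follow the called width as closely. It was 643, 440, 1011, 666 and 943 bp in DMSO 1 to 5, and 535, 452 and 0 bp in KDM5-C70 1 to 3. Here KDM5-C70 1 lies between DMSO 1 and DMSO 2, so the groups overlap. Inner segments filled 46.1, 98.7 and 0% of the called bases in KDM5-C70 1 to 3, against 22.8 to 41.5% in the DMSO libraries. The KDM5-C70 shares thus lay on both sides of the DMSO range.

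**Figure D2:**
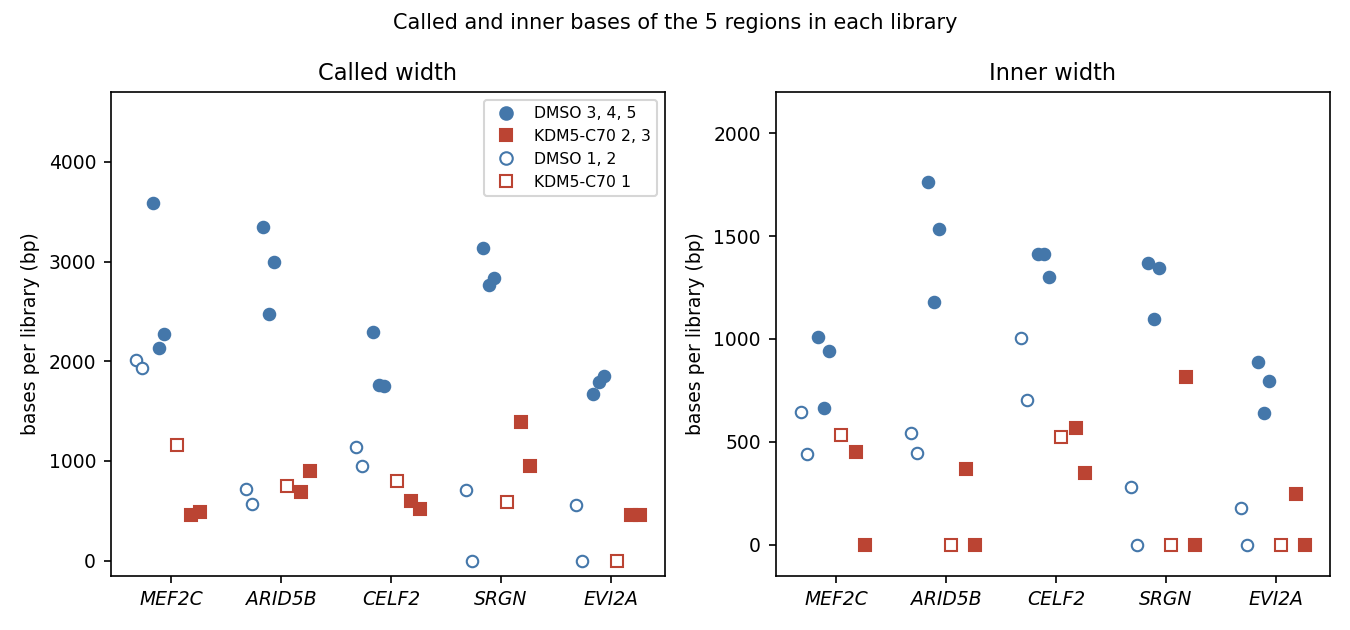
Called width (left) and inner width (right) in bp, 1 point per library, with 0 where nothing was called. Filled points are the choosing libraries and open points the check libraries. At ARID5B the open points do not follow the filled ones, with KDM5-C70 1 at 746 bp above DMSO 1 and 2.

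ARID5B was called as a single broad region in DMSO 3, 4 and 5, and only in pieces in KDM5-C70 2 and 3. The region lies on chr10:63660492-63664400. Its called width was 3345, 2477 and 3000 bp in DMSO 3, 4 and 5 and 689 and 897 bp in KDM5-C70 2 and 3, a log2 difference of -1.89. KDM5-C70 2 had 2 pieces there and KDM5-C70 3 had 3. Both lacked the middle stretch of 1354 bp (chr10:63662192-63663545), which all 3 DMSO libraries had.

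The check libraries did not show that order for ARID5B. KDM5-C70 1 had 746 bp, more than the 720 bp of DMSO 1 and the 573 bp of DMSO 2. The calls of DMSO 1 and 2 lie inside the middle stretch, and that of KDM5-C70 1 runs over its right end. All 3 are far narrower than DMSO 3 to 5, and these libraries have the shortest lists. The part of list length in this was not tested. The inner width there did separate, with 544 and 447 bp in DMSO 1 and 2 and 0 bp in KDM5-C70 1. Of regions 400 to 1000 bp wide, 15.01% in KDM5-C70 1 also had no inner segment. The same share was 17.3% in DMSO 1 and 5.85% in DMSO 2. Over all 8 libraries the inner width of ARID5B averaged 1094 ± 585 bp (SD, n = 5) under DMSO. Under KDM5-C70 it averaged 123 ± 212 bp (SD, n = 3), without overlap.

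CELF2 was narrower with KDM5-C70 in both sets of libraries and on both measures. The region lies on chr10:11207003-11209294. Called width was 1139, 952, 2292, 1759 and 1748 bp in DMSO 1 to 5. It was 795, 597 and 522 bp in KDM5-C70 1 to 3, below all DMSO values. The means were 638 ± 141 bp (SD, n = 3) and 1578 ± 538 bp (SD, n = 5), and the log2 difference in the choosing libraries was -1.78. Inner width was 1007, 705, 1415, 1411 and 1302 bp with DMSO and 522, 569 and 350 bp with KDM5-C70, again without overlap.

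All 8 libraries shared a CELF2 core of 466 bp (chr10:11207546-11208011). KDM5-C70 2 and 3 lacked 348 bp on its left and 777 bp on its right that DMSO 3, 4 and 5 had called. Most of the right flank was not called in DMSO 1, which ended at 11208161, and none of it in DMSO 2, which ended at 11208011. The called stretch began at 11207023 and 11207060 in DMSO 1 and 2, at 11207268 in KDM5-C70 1, and at 11207515 and 11207546 in KDM5-C70 2 and 3. In the check libraries CELF2 thus differed on its left side.

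SRGN was called over fewer bases in KDM5-C70 2 and 3 than in DMSO 3, 4 and 5, and the check libraries gave no order. The region lies on chr10:70846601-70850863. Its called width was 3136, 2761 and 2838 bp in DMSO 3, 4 and 5 and 1389 and 949 bp in KDM5-C70 2 and 3. DMSO 4 and 5 called it as 1 piece, DMSO 3 and KDM5-C70 3 as 2 and KDM5-C70 2 as 4, so the number of pieces overlaps between the groups. In the check libraries DMSO 1 had 711 bp, all left of the middle, DMSO 2 had no call, and KDM5-C70 1 had 587 bp at the right end. No base was called in both DMSO 1 and KDM5-C70 1. Inner width was 1370, 1098 and 1345 bp in DMSO 3, 4 and 5, 813 bp in KDM5-C70 2 and 0 bp in KDM5-C70 3. The difference in called width was the smallest of the 5 members on the log2 scale, at -1.34 in the choosing libraries.

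EVI2A, at chr17:29646732-29648599, had called widths of 1672, 1792 and 1854 bp in DMSO 3, 4 and 5. It had 459 and 456 bp in KDM5-C70 2 and 3, a log2 difference of -1.95. The values within each group are close together, yet the calls of the 2 KDM5-C70 libraries lie side by side and share only 15 bp. KDM5-C70 2 kept the right end and KDM5-C70 3 the middle. In the check libraries DMSO 1 had 559 bp, while DMSO 2 and KDM5-C70 1 had no call, so nothing can be said of treatment there. Inner width was 890, 641 and 797 bp in DMSO 3, 4 and 5, 249 bp in KDM5-C70 2 and 0 bp in KDM5-C70 3.

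Across the members in the choosing libraries, the gap between the highest KDM5-C70 and the lowest DMSO width ran from 1151 bp at CELF2 to 1642 bp at MEF2C. Inner width was narrower without overlap in all 5 members as well, as it was in 23.6% of the 22537 regions. Over all 8 libraries, 2 of the 3 members called throughout had called widths without overlap (MEF2C and CELF2), where 0.605% of the 13729 regions so called were narrower in that way. For inner width it was 2 of 3 (ARID5B and CELF2) and 2.25% of regions. The choice used 5 of those 8 libraries, so nothing is read from these counts. These orders rest partly on weak calls. When only regions with a -log10 q-value of at least 5, as the authors' caller gave it, were kept, the order of the choosing libraries held at CELF2 only. Even there the call of KDM5-C70 3 reached only 1.20, dropped out and counted as 0 bp, while the 597 bp of KDM5-C70 2 stayed. At MEF2C the calls of DMSO 4 and DMSO 5 reached 1.14 and 1.38 and dropped out, while the 490 bp of KDM5-C70 3 stayed.

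The question that the choice could not answer is whether KDM5-C70 1 differed from DMSO 1 and DMSO 2 at these regions. Of the 5 members, 3 were called in all 3 check libraries. KDM5-C70 1 was narrower than both DMSO libraries at MEF2C and CELF2 (2 of 3) and wider than both at ARID5B (1 of 3). Among the 14152 regions called in all 3 libraries, 28.7% were narrower than both and 33.3% wider than both, so these counts say little about the members. For inner width, 2 of the 3 (ARID5B and CELF2) were narrower, as were 47.9% of the 14152 regions. A permutation over these 3 libraries has only 3 arrangements, so its exact p cannot fall under 0.05.

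**Figure D3:**
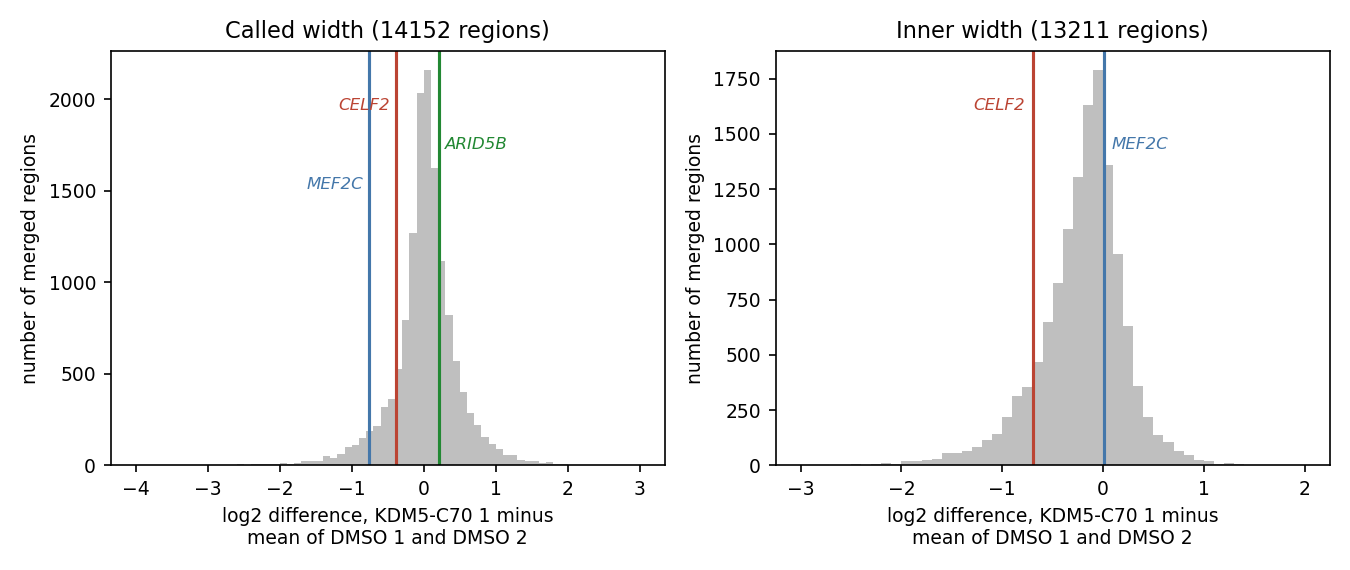
Number of merged regions by log2 difference between KDM5-C70 1 and the mean of DMSO 1 and 2, for called width (left) and inner width (right), with coloured lines at the members. MEF2C at -0.76 lies in the lower tail for called width and near the centre, at 0.01, for inner width.

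In the limma fit across all regions of the check libraries no member passed the threshold. The treated side of this fit is 1 library, and its spread before moderation comes from DMSO 1 and 2 alone (1 residual degree of freedom), so a p that misses the threshold does not show that widths were alike. At MEF2C the log2 difference of called width was -0.76 (SE 0.15, limma unadjusted p = 0.00868, adjusted p = 0.962), and 5.15% of regions had a lower one. At CELF2 it was -0.39 (SE 0.27, limma adjusted p = 1) and at ARID5B 0.22 (SE 0.38, limma adjusted p = 1). The median over all regions was 0.03. Limma called 0% of the 14152 regions narrower and 0% wider at an adjusted p under 0.05. At an unadjusted p under 0.05 it had 472 narrower (3.34%) and 217 wider, and MEF2C was 1 of the 472. Inner width could be fitted for 2 members. CELF2 had a log2 difference of -0.69 (SE 0.41, limma adjusted p = 1) and MEF2C 0.01 (SE 0.55, limma adjusted p = 1), where the median over 13211 regions was -0.15. There too 0% were called in either direction, with 679 narrower (5.14%) and 7 wider at an unadjusted p under 0.05, neither member among them.

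Position was compared next, taking the bases called in DMSO 3, 4 and 5 and in neither KDM5-C70 2 nor 3, and asking which check libraries had called them. MEF2C had 904 such bases, of which DMSO 1 called 693 and DMSO 2 called 718, and KDM5-C70 1 called 0. ARID5B had 1566, of which the same libraries called 720, 573 and 451. CELF2 had 1125, of which they called 398, 348 and 247. KDM5-C70 1 thus had fewer of these bases than both DMSO libraries in 3 of 3 members that all 8 libraries called, ARID5B included. Of the 298 regions called in all 8 libraries with at least 500 such bases, 38.9% showed that order. At SRGN, with 805 such bases, DMSO 1 called 60, DMSO 2 called 0 and KDM5-C70 1 called 49. At EVI2A none of the 3 libraries called any of the 772 bases. The order was widest at MEF2C, where DMSO 1 and 2 held 76.7 and 79.4% of the bases. No test was made of this measure.

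**Figure D4:**
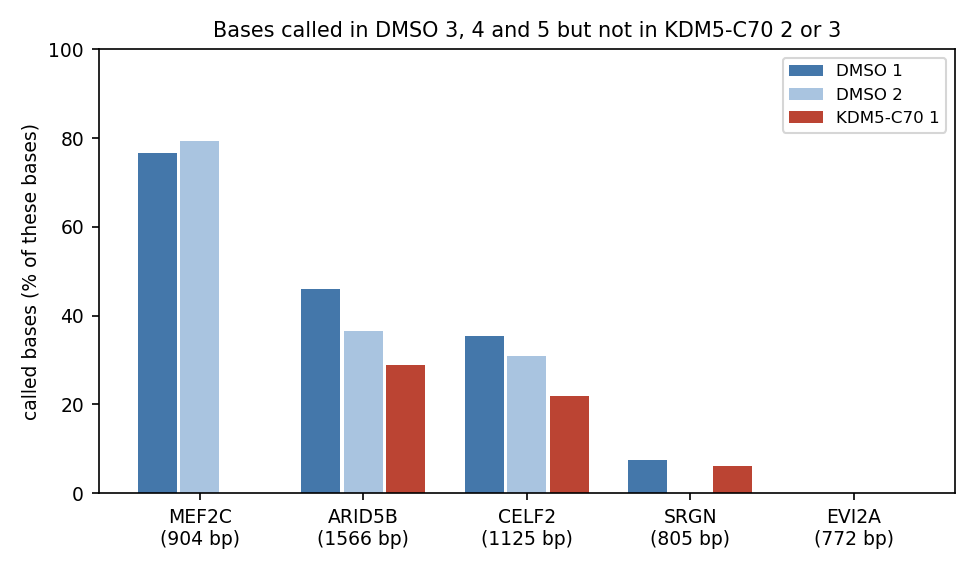
Share (%) of the bases called in DMSO 3, 4 and 5 but in neither KDM5-C70 2 nor 3 that each check library called, by member, with the number of such bases under each name. MEF2C has 76.7% in DMSO 1, 79.4% in DMSO 2 and 0% in KDM5-C70 1, and EVI2A has none in any library.

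Within 50000 bp of the 5 members lay 15 other merged regions. With an uncalled region counted as 0 bp, 4 of the 15 were narrower in KDM5-C70 2 and 3 than in DMSO 3, 4 and 5, and 2 were wider. All choosing libraries had a call in 5 of the 15, and 1 of those was narrower and 1 wider. Of all regions so called, 7.61% were narrower and 35% wider. The narrower one, near EVI2A at chr17:29636819-29640682, had 2902, 2368 and 2856 bp in DMSO 3, 4 and 5 and 2163 and 1822 bp in KDM5-C70 2 and 3. The other 3 narrower regions lie near ARID5B and CELF2. Near ARID5B, chr10:63697010-63698133 had 1124, 487 and 888 bp in DMSO 3, 4 and 5 and no call in either KDM5-C70 library. Near CELF2, chr10:11221500-11222683 had 875, 146 and 629 bp in DMSO and likewise no call in KDM5-C70. Also near CELF2, chr10:11250503-11251352 had 768, 217 and 688 bp in DMSO, 166 bp in KDM5-C70 2 and no call in KDM5-C70 3. None of these 3 was called in a check library. The wider region near SRGN, chr10:70883205-70885674, had 2060, 1885 and 1952 bp in DMSO and 2448 and 2364 bp in KDM5-C70. The wider one near ARID5B, chr10:63657077-63657731, had 178, 0 and 172 bp in DMSO and 552 and 180 bp in KDM5-C70. Only 4401 bp from MEF2C, the region chr5:88184796-88186441 had 1287, 1323 and 1370 bp in DMSO 3, 4 and 5 and 1494 and 809 bp in KDM5-C70 2 and 3, which overlap. In the check libraries that region was narrower in KDM5-C70 1 (777 bp) than in DMSO 1 and 2 (1029 and 926 bp). So was the one near SRGN, with 873 bp against 1235 and 1326 bp. Near EVI2A, chr17:29636819-29640682 and chr17:29672291-29672686 had no call in KDM5-C70 1, against 264 and 199 bp and 333 and 146 bp in DMSO 1 and 2. That makes 4 of the 15 narrower and 0 wider in the check libraries. Shares over all merged regions with uncalled ones counted as 0 bp were not computed. Of regions called in all 3 check libraries, 28.7% were narrower and 33.3% wider. Nothing is therefore read from the counts of neighbours.

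Among the 3 members called in all 8 libraries, MEF2C and CELF2 were alike across libraries (Pearson's r of log2 called width 0.93 over 8 libraries). ARID5B was less like MEF2C (r = 0.59) than like CELF2 (r = 0.83). All were chosen for 5 of these 8 points, so the values are a description only. The region most like MEF2C was chr17:40332853-40333375 (r = 0.98). It had 375, 398, 523, 456 and 493 bp in DMSO 1 to 5 and 328, 222 and 206 bp in KDM5-C70 1 to 3. All its KDM5-C70 values lie below all its DMSO values, an order that the search for a high r with MEF2C favours. The region most like CELF2 was chr12:122241297-122243504 (r = 0.99), with 1025 to 2195 bp in DMSO and 577 to 891 bp in KDM5-C70. For ARID5B it was chr12:24714447-24716367 (r = 0.98), which ran only from 1513 to 1828 bp. With r above 0.9 there were 27, 50 and 73 regions for MEF2C, CELF2 and ARID5B, of 13728 searched.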

How the data were processed

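Each library has its own list of regions, as the authors deposited it, so nothing was pooled before calling. Per the submitters' processing notes the tools named are MACS2 2.1.0, Bowtie 1.1.2, HOMER 4.8 and Trim Galore 0.40, and the build is GRCh37. Their settings are not given in the sources here. Each deposited region carries its position, its inner blocks, a display score (not used), a fold enrichment (a ratio, not used in any result), and a p-value and a q-value, both as -log10. Region names inside the lists titled DMSO 3, 4 and 5 carry the numbers 4, 5 and 6, and the titles were used. Regions on chromosomes 1 to 22 and X were joined wherever they overlapped by at least 1 bp. Called width is a library's called bases in a merged region, and inner width its bases in inner blocks longer than 1 bp. Check libraries were compared with limma 3.58.1 (R 4.3.3) on log2 widths with a variance trend, 2-sided, with Benjamini-Hochberg adjustment at 0.05 over all regions. Tested on simulated widths for 14152 regions, the fit found 87% of the 100 that were narrowed by a log2 change of -1. It found 100% of a further 100 narrowed by -2, and made 13 false calls. That noise was independent between regions and had the same SD at every region, unlike the data. The shares found are therefore no measure of what the fit can find in the real widths. Python 3.11.15, numpy 2.4.6, pandas 2.3.3 and matplotlib 3.10.9 did the rest. The rule described the 5 members, their neighbours within 50000 bp and, for each member called in all 8 libraries, the region most like it. The members, measures and lists were chosen with earlier results of these data known. Lists of lymphoid and plasma cell genes were not used, since the gene table here is of another build.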

Additional observations from a re-analysis of the deposited data

Results flagged for a closer look

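Of 10 groups of DMSO values (5 members, called and inner width), 1 had a library that stood apart. It was MEF2C, where DMSO 3 reached 3590 called bp while DMSO 1, 2, 4 and 5 lay between 1929 and 2271. Chance marks about 5% of groups only where values are unselected and groups are independent. DMSO 3, 4 and 5 were used to choose the members, so nothing is read from this count. ARID5B went opposite ways in the check and choosing libraries: KDM5-C70 1, with 746 bp, was wider than DMSO 1 and 2, while KDM5-C70 2 and 3 were narrower than DMSO 3 to 5. That difference was not tested.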

How the results depend on the processing

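No member passed the threshold in the check libraries under any alternative that could be fitted. With 1 treated library and the spread from DMSO 1 and 2 alone, this says nothing about stability. Limma's counts moved. With libraries centred on their median it called 348 regions narrower and 147 wider by called width, and 126 and 4 by inner width. MEF2C then had an adjusted p of 0.0666, against 0.735 to 1 in the other fits that held it. With a -log10 q-value of at least 5 it called 1 region narrower by called width, of only 875 tested, and 1 by inner width, and no member could be fitted. Lists of equal length gave 68 narrower by inner width, and joining within 1000 bp gave 13. Fewer regions were tested under each of these settings except centring, which kept the same regions as the main fit. In the centred fit of called width and the equal-length fit of inner width, limma took each spread from its variance trend alone. The cause of the moves was not tested. The log2 inner difference of MEF2C was 0.28 without DMSO replicate 1 and turned to -0.27 without DMSO replicate 2. Without DMSO 1 or 2 no residual degree of freedom was left, so these are values only. Over all 8 libraries, leaving out 1 library gave mean differences of -1912 to -603 bp for called width and -1133 to -247 bp for inner width. Their direction is fixed largely by the choice of members, so it is no sign of stability. Sizes moved by over 1.5 times as follows. Called width at SRGN went from -914 to -1387 bp without DMSO 2 and to -603 bp without DMSO 3, and inner width at MEF2C from -412 to -247 bp without KDM5-C70 3. With a -log10 q-value of at least 5, called width went from -1684 to -741 bp at MEF2C and from -870 to -388 bp at EVI2A, and inner width from -972 to -584 bp at ARID5B and from -419 to -223 bp at EVI2A. With lists of equal length called width at SRGN was -1532 bp. The replicate block used replicates 1 to 3 only, so DMSO 4 and DMSO 5 were left out. With equal numbers per group a block does not alter a mean difference, so the shifts come from leaving out those libraries. Called width was then -307 bp at SRGN, -439 bp at EVI2A and -769 bp at ARID5B (-1246 bp with all 8 libraries). Inner width was -280 bp at SRGN (-548 bp with all 8 libraries) and -274 bp at EVI2A. Libraries of the same replicate number had correlations of deviations of 0.37, -0.31 and 0.32 for numbers 1 to 3. Libraries of unlike number were not compared, so these values cannot tell whether the numbers pair the libraries. Number 3 in this check and in the block rests on the titles, since the region names in the list titled DMSO 3 carry the number 4. No paired analysis was possible in the check libraries because the check groups share only number 1.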
